A study of Rattus norvegicus with 26 samples.

Results

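The step from d2 to d4 of smooth muscle cell (SMC) differentiation was examined in the rat multipotent adult progenitor cell (rMAPC) clone Cl-19, called Cl19 here. The members were the arrays labelled Cl19 at d2 and d4, 6 of the 26 arrays of the study, and every gene that newly changed, continued or turned back after d2 was taken from them. The array Cl19 d2 replicate 1 resembled the other clone and was left out of the main values, so that 5 arrays (2 at d2 and 3 at d4) entered the comparison and the sixth was kept as a check.

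rMAPCs are bone marrow derived clones that express Oct4, and Cl19 came from a 3 week old female Fischer rat. At every later day the cells had been kept in basal rMAPC medium with TGF-β and PDGF-BB, over a course of 6 days, and d0 cells were the start of that course. Cells of the clone 3c3, from an embryonic day 18 female Fischer rat, went through the same course, and each clone was sampled 3 times at d0, d2, d4 and d6. RNA of primary rat smooth muscle cells filled 2 further arrays. No culture without the factors was sampled at d2 or d4, so time in the medium and the factors cannot be told apart, and each line was 1 clone. The labels do not say whether replicates were separate cultures, so the p-values measure a spread between samples that may be technical. That spread was pooled over 9 groups on 25 arrays, 3c3 and primary cells among them, not over Cl19 d2 and d4 alone.

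SMC differentiation is the acquisition of a contractile apparatus. TGF-β signals through Smad proteins and PDGF-BB through receptor tyrosine kinases, and the genes of the contractile apparatus are read by serum response factor (SRF) together with myocardin-type cofactors and the BAF chromatin remodelling complex, of which Baf60c (Smarcd3) is a subunit. Rat MAPCs carry, besides Oct4, transcription factors of the primitive endoderm.

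Levels are given as normalised log2 signal, on which a difference of 1 is a fold of 2, and a level of one gene was not set against that of another. Between 54.4% and 59.3% of the probes were well above background on the 6 arrays. The left-out array differed from the 3 arrays of 3c3 at d2 by root mean square distances of 0.387, 0.548 and 0.434 log2 (replicates 1 to 3), and from the other Cl19 arrays at d2 by 0.925 (replicate 2) and 0.881 (replicate 3). Those other arrays differed from each other by 0.584, and the 3 d4 arrays by 0.577 to 0.824. Of all the arrays, the left-out one was the nearest to each of the 3 arrays of 3c3 at d2. The slides carried 1 replicate of 1 clone each, with d0, d2, d4 and d6 always at the same positions, so day and position on the slide cannot be told apart.

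Between d2 and d4, 2915 of 24673 probes tested (11.8%) changed in Cl19 at an adjusted p under 0.05 by limma, 1457 of them higher and 1458 lower at d4. The median size of these changes was 1.24 on the log2 scale, and 1859 exceeded a fold of 2. The step from d0 to d2 changed 6121 probes in the same fit and the step from d4 to d6 changed 1990. Counted with 1 probe for each of 12864 genes, 937 genes rose (7.28%) and 946 fell (7.35%). Of the 2915 probes, 2907 moved the same way within the slides of replicates 2 and 3, and 2814 within the slide of replicate 1, whose d2 array was not in the fit. Among 16980 probes called neither from d0 to d2 nor from d2 to d4, the corresponding numbers were 10982 and 13033. The signals of the 2 days did not overlap in 2888 of the 2915 probes. Counted in genes, they did not overlap in 1864 of 1883 called, against 43.1% of all genes tested. The calls were made on these arrays except d2 replicate 1, so this agreement and the lack of overlap largely follow from the calls. The count was 5015 with d2 replicate 1 kept and 4395 with the slide as a replicate block. It was 1037 without d2 replicate 2, 1243 without d2 replicate 3, 1514 without d4 replicate 3, and between 2519 and 3797 without each of the other d4 arrays. With 2 arrays at d2, the count thus depended on each of them, whereas no probe was called in opposite directions by the main fit and any of these.

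Each probe was placed by what it had done from d0 to d2. Of the 2915 probes, 1572 had not passed the test in the first step and were newly changed (775 higher and 797 lower), 1097 continued in the direction of the first step (594 higher and 503 lower), and 246 turned back (88 higher and 158 lower). In genes, these classes held 985 (7.66%), 727 (5.65%) and 171 (1.33%) of those tested. A further 4778 probes changed by d2 and passed no test after it. Median sizes of the second step were 1.19, 1.26 and 1.33 log2 in the newly changed, continued and turned back probes. Of the 246 that turned back, 80 still differed between d4 and d0, 59 on the side reached at d2 and 21 on the opposite side. The classes are a description, since both steps share the d2 arrays with opposite sign and an error there moves probes towards turning back. With a different d2 array in each step, 56 or 74 probes turned back, depending on which array served which step, and 56 and 70 of them were among the 246. Without d4 replicate 2, 414 probes turned back, and without d4 replicate 3, 129.

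**Figure D1:**
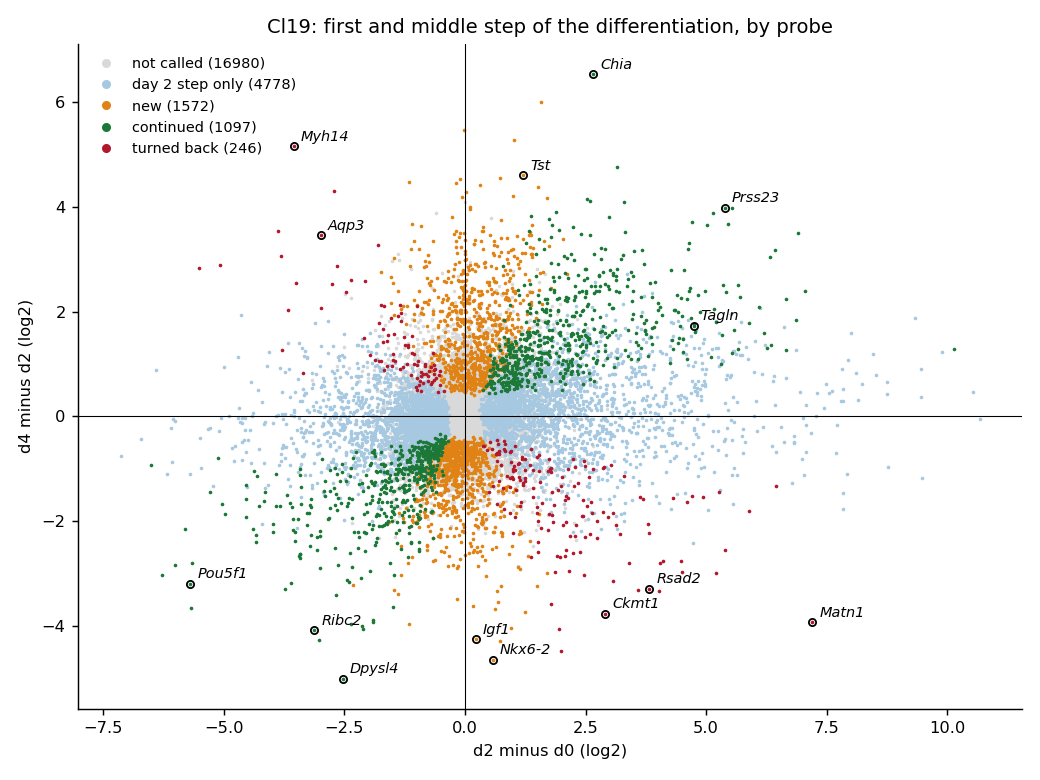
Change from d2 to d4 (vertical axis, log2) against change from d0 to d2 (horizontal axis, log2) for the probes tested in Cl19, with 1 point per probe, orange for newly changed, green for continued and red for turned back probes, and blue or grey for the rest. The 246 probes that turned back lie in the quadrants where the signs of the steps differ, which an error in the shared d2 arrays also fills.

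The contractile apparatus went on rising. Of 29 contractile smooth muscle genes measured, 16 rose from d2 to d4, none fell, and the median change was 0.81 log2, against -0.05 over all genes. Among all genes 7.28% rose and 7.35% fell, the shares to set beside this and every later list count. Of these 16, 12 had already risen by d2, 3 were newly changed and 1 turned back. A further 9 of the 29 had changed by d2 and passed no test after it. Between 14 and 16 rose when each array was left out in turn, 20 rose and 1 fell with d2 replicate 1 kept, and 21 rose with the replicate block. In a bulk sample, fewer cells of a type and less RNA per cell cannot be told apart, for this and all later results.

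Tagln encodes SM22α, an actin-binding protein of smooth muscle, and its probe lies at chr8:48902736-48903116 of the rn4 assembly. Its log2 signal was 14.13 and 13.97 at d2 (replicates 2 and 3), and 15.60, 15.79 and 15.95 at d4 (replicates 1 to 3). Every d4 array was above both d2 arrays, and the left-out d2 array, at 12.24, was lower still. The rise was 1.73 ± 0.22 log2 (SE; adjusted p = 5.31e-05, limma), 3.33-fold, after a rise of 4.74 from d0 to d2. Calponin 1 (Cnn1) gave 10.21 and 10.36 at d2 and 11.23, 11.60 and 11.81 at d4, a rise of 1.26 ± 0.22 (adjusted p = 0.000862). Smoothelin (Smtn), a protein of contractile smooth muscle, gave 11.42 and 11.63 and then 12.41, 12.48 and 13.02, a rise of 1.11 ± 0.19 (adjusted p = 0.000884). Neither gene had overlapping days.

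Non-muscle myosin heavy chain IIB (Myh10) went from 10.56 and 10.67 to 12.20, 12.51 and 12.66, a rise of 1.84 ± 0.20 (adjusted p = 1.63e-05). Enteric γ-actin (Actg2) was the gene of the list that turned back, since it read 4.46 on average at d0, 3.78 and 3.15 at d2, and 4.85, 5.88 and 6.03 at d4. Its d2 arrays were the lowest of the 3 days. The rise after d2 was 2.12 ± 0.34 (adjusted p = 0.000501). β-Tropomyosin (Tpm2) rose from 13.05 and 13.40 to 14.90, 15.66 and 15.73, by 2.20 ± 0.44 (adjusted p = 0.00272), and over the fits that left out 1 array its adjusted p ran from 0.002 to 0.0503, the highest without d2 replicate 2. Leiomodin 1 (Lmod1), an actin filament nucleator, rose from 4.14 and 4.55 to 5.91, 6.01 and 6.16, with an adjusted p of 0.00393 that ran from 0.0073 to 0.0747 in the same fits, again the highest without d2 replicate 2. Desmin (Des), the muscle intermediate filament protein, read 3.78 and 4.45 and then 4.98, 6.74 and 6.65. Its change of 2.01 had an adjusted p of 0.0187 with the left-out array absent and 0.0751 with it, and the range over the fits that left out 1 array was 0.00234 to 0.197.

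Of 10 marker genes of primary smooth muscle, 7 rose (Actg2, Des, Tagln, Lmod1, Synpo2, Cnn1 and Smtn). The number was 4 without d2 replicate 2 and 5 to 7 without each other array. Smooth muscle myosin heavy chain (Myh11) was not analysed here because no probe carried its name, and the probe of myosin light chain kinase (Mylk) was not well above background on any Cl19 array of d2 or d4. In 3c3, 14 of the 29 contractile genes rose between d2 and d4 and none fell (6.32% of all genes rose there and 6.02% fell). None of the 29 passed the test of a difference between the clones, in which Tagln, with a rise of 1.92 in 3c3, had an adjusted p of 0.968.

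**Figure D2:**
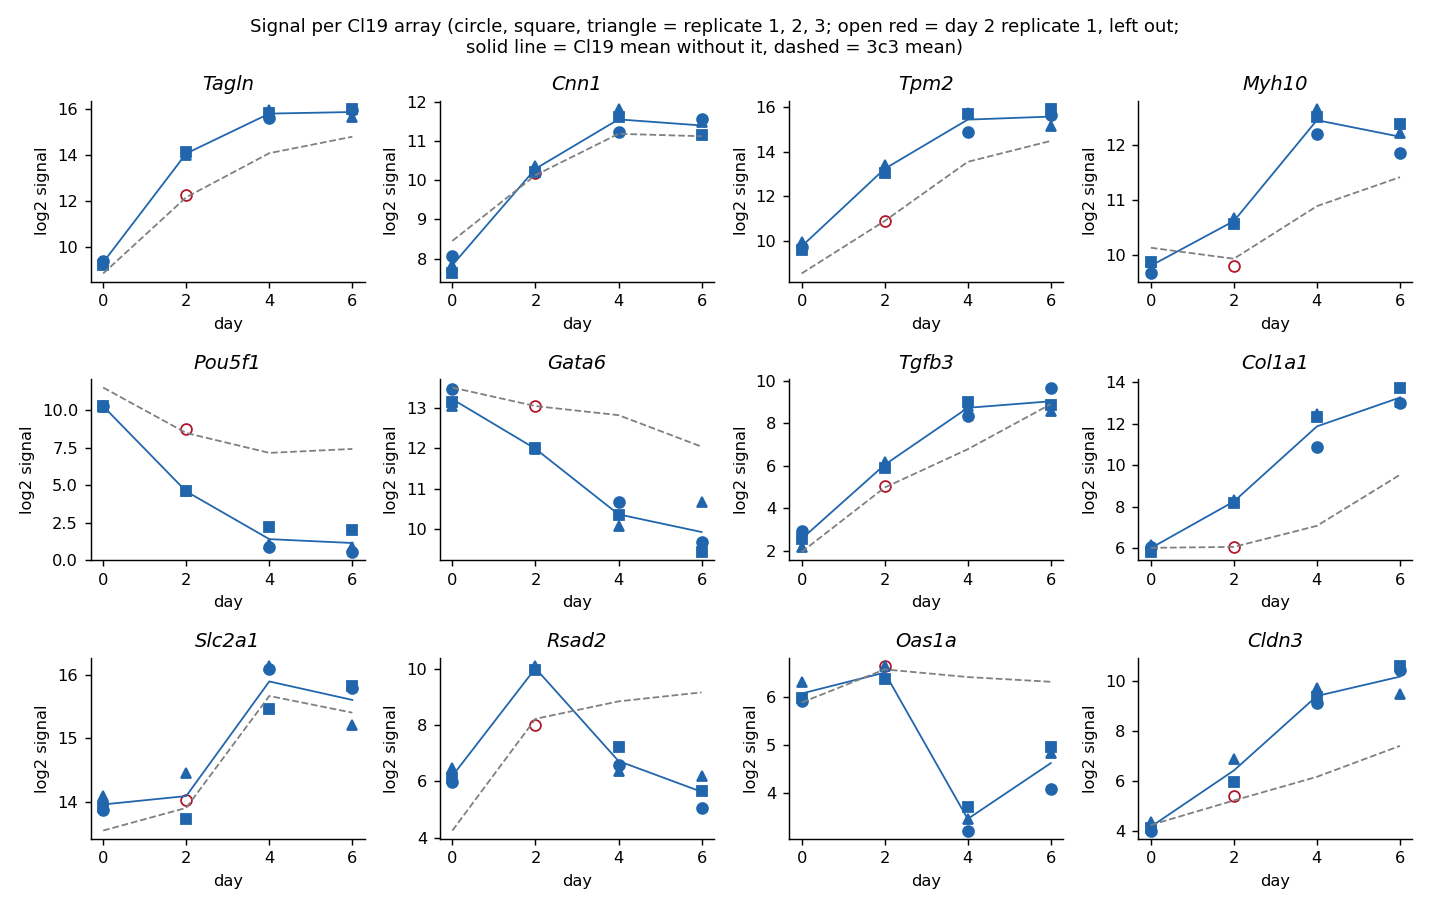
Normalised log2 signal (vertical axis) of named genes on each array of Cl19 at d0, d2, d4 and d6 (horizontal axis), 1 point per array and a solid line through the means, with the left-out array of d2 as an open red point and the 3c3 mean as a dashed line. The open point lies near the dashed line in the panels, and in the panel of Tagln the d4 points lie between 15.60 and 15.95, above both d2 points used.

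Among 24 SRF, myocardin and chromatin cofactors measured, 4 rose and 2 fell after d2, against 7.28% and 7.35% of all genes. The count that fell was near that share. Between 3 and 5 rose and 1 fell when each array was left out in turn. A further 5 had changed by d2 and passed no test after it. Smarcd3 (Baf60c) stood at 5.85 on average at d0, at 12.67 and 12.31 at d2, and at 13.52, 12.83 and 13.34 at d4. The d4 arrays were above the d2 arrays, yet the change of 0.74 ± 0.30 after d2 did not pass the test (adjusted p = 0.131), unlike the 6.65 before it. With the left-out array, which read 9.90, the change was 1.60 and passed. Srf, at 14.02 and 13.90 and then 14.77, 14.25 and 14.44, did not pass either (0.52, adjusted p = 0.0849). Fhl2, a LIM-domain cofactor, rose from 11.25 and 11.09 to 12.38, 12.52 and 12.83, by 1.40 (adjusted p = 0.000122), and Mrtfa, an actin-regulated SRF cofactor, from 12.71 and 12.67 to 13.46, 13.46 and 13.47, by 0.77 (adjusted p = 0.00216). In both genes every d4 array was above the d2 arrays. Myocd was not well above background on any Cl19 array of d2 or d4.

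Among ligands and targets of the TGF-β pathway, 6 of 28 rose and 1 fell (median 0.41, and 0.22 with normexp background correction). The number that rose was 3 without d2 replicate 2, 2 without d2 replicate 3 and 2 without d4 replicate 3. The ligand gene Tgfb3 read 2.56 on average at d0, 5.91 and 6.19 at d2, and 8.34, 9.02 and 8.84 at d4. Its rise of 2.68 ± 0.31 after d2 was 6.42-fold (adjusted p = 2.47e-05), and it rose by 3.49 before d2. Tgfb2 was not well above background at d2, where it read 1.80 and 1.36, and read 5.02, 4.27 and 5.68 at d4, so that its rise was at least 8.17-fold (adjusted p = 0.000675). Such bounds, here and below, compare the brighter day's mean with the lowest signals that counted as well above background on the dimmer day's arrays (or the probe's own signal where that was higher). The member that fell was Smad6, an inhibitory Smad, which went from 8.39 and 8.64 to 7.67, 7.40 and 7.01, by -1.16 ± 0.22 (adjusted p = 0.00237). In 3c3 the change of Smad6 was 0.49, and the clones differed (adjusted p = 0.00445).

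The ligand gene Pdgfb rose from 2.95 and 3.13 to 5.44, 5.28 and 5.58, by 2.39 (adjusted p = 0.00111), whereas in 3c3, where it was not well above background on either day, its change was -0.01 (adjusted p of the difference 0.0251). Pdgfra, which encodes a PDGF receptor, fell from 11.73 and 11.53 to 10.47, 10.86 and 10.65, by -0.97 ± 0.18 (adjusted p = 0.00136). Pdgfa rose by 1.36 (adjusted p = 0.0108), with 0.00721 to 0.233 over the fits that left out 1 array and the call lost without d2 replicate 2 or d4 replicate 3. Among 21 BMP pathway and Id genes 5 rose and 1 fell, and the number that rose was 2 without d2 replicate 2, 1 without d2 replicate 3, 1 without d4 replicate 3 and 4 to 6 without each other array. Bmp2 had 10.70 and 10.52 at d2 and 11.94, 12.47 and 11.88 at d4 (1.49, adjusted p = 0.0167, and 0.0265 to 0.129 in those fits).

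Pou5f1 and Gata6, factors of the undifferentiated cells, fell after d2. Pou5f1 (Oct4) had an average of 10.28 at d0, read 4.58 and 4.59 at d2, and read 0.87, 2.22 and 1.08 at d4, where 1 of 3 arrays was well above background. The d2 arrays used were alike, while the left-out array read 8.77. The change after d2 was -3.20 ± 0.44 (adjusted p = 0.000141), a fitted value whose size is uncertain because it rests partly on signals below background. Its call was lost with normexp background correction. Gata6, a primitive endoderm factor, fell from 12.01 and 11.98 to 10.66, 10.34 and 10.08, by -1.63 ± 0.26 (adjusted p = 0.000479), and its 4 probes fell by 0.90 to 1.79. In 3c3 it changed by -0.23, and the clones differed (adjusted p = 0.035). Sox7 fell as well, by -1.24, whereas Gata4 (-0.15, adjusted p = 0.873) and Foxa2 (0.09, adjusted p = 0.831) did not pass the test and stayed near 13 to 14 log2. The label of the starting clone was met at d0 by Pou5f1, Gata4, Gata6, Sox7, Sox17 and Foxa2, all between 9.71 and 13.61. Of all genes, 7.28% rose and 7.35% fell after d2. Over the lists, 2 of 30 endoderm genes rose and 4 fell, and 1 of 19 pluripotency genes rose (Sox2, 2.38, adjusted p = 0.0279, range 0.0308 to 0.147 as arrays were left out) and 2 fell (Pou5f1 and Dnmt3a). The number of endoderm genes that fell was 1 without d2 replicate 2, 2 without d2 replicate 3, 2 without d4 replicate 3 and 3 to 5 without each other array. The call of Sox2 held without d4 replicate 1 and was lost without each of the other arrays and with the replicate block (adjusted p = 0.0608).

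Most mesendoderm genes had moved before d2, and few passed the test after it. Of 16 Nodal and mesendoderm genes, 13 changed by d2 and passed no test after it. The median change of the 16 was 4.40 from d0 to d2 and 0.05 from d2 to d4, and the latter was 0.64 with d2 replicate 1 kept. Members changed by -1.47 to 1.72 after d2. Hence not passing the test does not show that a gene stayed level. Eomes had changed by 3.54 before d2 and changed by -0.31 after (adjusted p = 0.827), and Lhx1 by 5.44 and then -0.22 (adjusted p = 0.903). Cited4 had 6.99 before and -0.82 after (adjusted p = 0.492), while in 3c3 it rose by 4.13 after d2, and the clones differed (adjusted p = 0.0032). Of the members that went on rising, Foxh1, a Smad-binding forkhead factor, rose by 1.72 (adjusted p = 0.00789, range 0.0103 to 0.133, highest without d2 replicate 2). Foxc1, a forkhead factor of mesenchyme, fell further, from 4.42 and 4.12 to 1.80, 2.46 and 1.35, with 1 of 3 d4 arrays well above background (-2.40, adjusted p = 0.000118), so that the size of the fall is uncertain. In 3c3 its change was 0.05 (adjusted p of the difference 0.00385). Sox4 (0.08), Zeb1 (0.14) and Foxc2 (0.00) did not pass the test after d2.

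Epithelial and tight junction genes rose in the same step. Of 26 tight junction genes, 10 rose and none fell (median 0.57, and 0.33 with normexp background correction). Without d2 replicate 2 the count was 5, without d2 replicate 3 it was 6, and without d4 replicate 3 it was 6. Claudin 3 (Cldn3), a sealing protein of the junction, read 4.17 on average at d0, 5.96 and 6.89 at d2, and 9.11, 9.38 and 9.73 at d4. All 3 d4 arrays were above the d2 arrays, and the rise was 2.98 ± 0.34 (7.90-fold, adjusted p = 2.18e-05). Cldn8 was not well above background at d2 (0.21 and 0.20) and read 3.00, 5.29 and 3.75 at d4, at least 4.15-fold higher (adjusted p = 1.68e-05). Cldn1 likewise read 0.52 and 0.47 and then 2.06, 3.35 and 3.41, with 2 of 3 d4 arrays well above background, at least 1.98-fold higher (adjusted p = 0.000371). Its call was lost with normexp background correction and with a floor at the lowest signal well above background. The p-value thus depends on signals below background. The scaffold protein gene Tjp3 rose by 2.26 (adjusted p = 0.00138).

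Of 30 epithelial genes, 8 rose and 1 fell (median 0.64). The number that rose was 4 without d2 replicate 2, 5 without d2 replicate 3 and 5 without d4 replicate 3, and 16 with d2 replicate 1 kept. Rab25, a small GTPase of epithelial membrane recycling, read 3.31 at d0 on average, 5.10 and 5.29 at d2, and 8.01, 9.66 and 9.67 at d4. Its rise of 3.92 ± 0.44 was 15.1-fold (adjusted p = 2.14e-05), and its change in 3c3 was 0.12 (adjusted p of the difference 0.00125). In 3c3, 3 tight junction genes rose and 2 fell, and 5 epithelial genes rose and 3 fell. The clones differed in 6 of the 26 and 5 of the 30, against 3.61% of all genes.

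Genes of the extracellular matrix were less uniform. Of 30 fibrillar collagen and matrix genes, 9 rose and 2 fell (median 0.31, and 0.04 with normexp background correction), and the number that rose was 4 without d2 replicate 2, 5 without d2 replicate 3, 6 without d4 replicate 2, 4 without d4 replicate 3 and 8 without d4 replicate 1. Col1a1, a chain of type I collagen, read 6.00 at d0 on average, 8.18 and 8.31 at d2, 10.86, 12.31 and 12.45 at d4 and 13.26 on average at d6. The rise after d2 was 3.63 ± 0.55 (12.4-fold, adjusted p = 0.000297), and its 3 probes rose by 3.46 to 3.63. The left-out array, at 6.06, was near the level of d0. Fibronectin (Fn1) rose from 8.97 and 9.40 to 10.97, 12.43 and 13.06 (2.97 ± 0.53, adjusted p = 0.0012). Lumican (Lum), a collagen-binding proteoglycan, went from 0.55 and 0.50, not well above background, to 3.32, 6.35 and 5.50, at least 8.56-fold (adjusted p = 3.6e-05), and changed by -0.12 in 3c3, also not well above background on either day (adjusted p of the difference 0.00133). Among 17 basement membrane genes 5 rose and 2 fell, and the number that rose was 1 without d2 replicate 3, 3 without d4 replicate 3 and 4 or 5 without each other array. The laminin chain gene Lamb2 rose from 10.85 and 11.08 to 12.64, 11.98 and 12.85 (1.53, adjusted p = 0.00082).

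Wnt ligand genes were among the largest rises. Wnt5b read 2.87 on average at d0, 4.85 and 4.28 at d2, and 7.72, 8.63 and 9.86 at d4, a rise of 4.17 ± 0.64 (18.1-fold, adjusted p = 0.000356), and reached 11.80 on average at d6. Its change in 3c3 was 0.77, and the clones differed (adjusted p = 0.0386). Wnt4 read 8.31 and 8.95 and then 11.34, 11.45 and 12.09, a rise of 3.00 ± 0.33 (adjusted p = 1.86e-05). Both were newly changed after d2, and neither had overlapping days. The secreted antagonist Wif1 also rose, from 3.12 and 3.50 to 5.30, 5.06 and 5.55 (1.99, adjusted p = 0.00114). Of 30 Wnt pathway genes measured 7 rose and 1 fell, with 6 to 8 rising as arrays were left out.

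Glycolysis and hypoxia response genes, which encode glucose transport and the glycolytic enzymes and are read by hypoxia-inducible factor (HIF), rose after d2. Of 32 measured, 15 rose and 1 fell (median 0.74). Of these 16, 12 were newly changed. In 3c3, 20 rose and none fell. The number that rose in Cl19 was 2 without d2 replicate 2, 17 without d2 replicate 3, 7 without d4 replicate 1, 17 without d4 replicate 2 and 6 without d4 replicate 3. Hence d2 replicates 2 and 3 did not carry the count equally. The glucose transporter gene Slc2a1 read 13.96 on average at d0, 13.73 and 14.45 at d2, and 16.09, 15.47 and 16.14 at d4. Its rise was 1.81 ± 0.32 (3.51-fold, adjusted p = 0.0011), and that in 3c3 was 1.77. Pfkfb3, an activator of glycolytic flux, rose from 5.05 and 5.02 to 6.50, 6.33 and 7.15 (1.63, adjusted p = 0.00153). Ankrd37, a HIF target, read 9.09 and 9.89 and then 11.49, 11.15 and 11.88 (2.02, adjusted p = 0.0313, and 0.0308 to 0.27 as arrays were left out).

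The promoters of Ankrd37 and of Bnip3, a mitochondrial autophagy receptor that rose by 1.42 (adjusted p = 0.041), are shown because both carry the core of the hypoxia response element, ACGTG. Bnip3 was chosen for this after its value was seen. The 250 bases before the RefSeq gene start are printed in the sense of the gene (GRCr8 assembly), for Ankrd37 chr16:53001257-53001506 on the plus strand and for Bnip3 chr1:203154963-203155212 on the minus strand, and capitals mark the core on either strand, the overlap of both strands being the run of 6 letters.
Ankrd37: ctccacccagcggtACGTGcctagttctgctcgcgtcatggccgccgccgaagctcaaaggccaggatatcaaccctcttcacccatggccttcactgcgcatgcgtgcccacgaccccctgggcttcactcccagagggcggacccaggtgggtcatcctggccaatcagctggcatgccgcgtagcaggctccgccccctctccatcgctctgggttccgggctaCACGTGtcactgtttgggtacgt
Bnip3: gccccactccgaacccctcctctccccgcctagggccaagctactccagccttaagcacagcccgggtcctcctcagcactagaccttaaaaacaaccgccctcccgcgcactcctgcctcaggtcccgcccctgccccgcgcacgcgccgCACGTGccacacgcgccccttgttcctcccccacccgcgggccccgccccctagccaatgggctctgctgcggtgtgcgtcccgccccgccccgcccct
In the window of 300 bases (250 before and 50 after the start), 7 of 12 promoters found for the genes that rose held ACGTG on either strand, as did 7 of 15 of the other measured genes of the list and 19.7% of all 27457 rat promoters. A match is a description and no evidence of binding.

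Of 23 AP-1 and immediate early genes, 11 rose and 1 fell (median 0.85). The number that rose was 3 without d2 replicate 2, 2 without d2 replicate 3, 6 without d4 replicate 1, 12 without d4 replicate 2 and 6 without d4 replicate 3. Dusp1, a phosphatase of MAP kinases, rose from 10.50 and 10.31 to 13.47, 12.52 and 13.45 (2.74 ± 0.39, adjusted p = 0.000168). Maff, a small Maf factor, rose by 1.81 (adjusted p = 0.00239). In both genes d4 replicate 2 was the lowest of the d4 arrays. That array also stood apart in amino acid and unfolded protein stress genes, whose mean log2 signal over 23 genes was 12.56, 10.58 and 12.43 in d4 replicates 1 to 3, and 10.67 and 10.52 at d2. Their count of rising genes was 2 with all d4 arrays, 14 without d4 replicate 2, 0 without any other array, 0 with the replicate block and 7 with d2 replicate 1 kept. The part of this in the hypoxia and immediate early results was not tested beyond these counts.

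**Figure D3:**
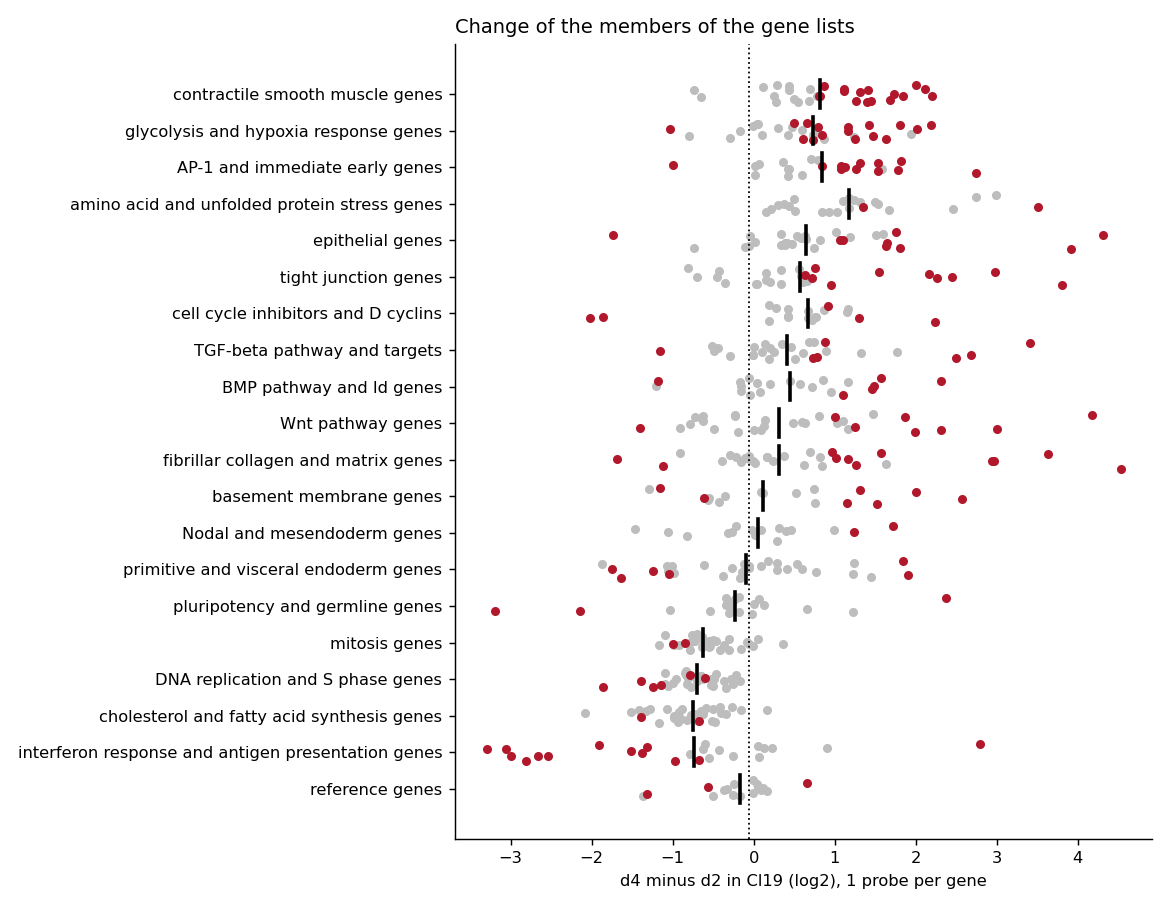
Change from d2 to d4 in Cl19 (horizontal axis, log2) of the measured members of the gene lists (rows), 1 point per gene, red for genes that passed the test and grey for the rest, with a black bar for the list's median and a dotted line for that of all genes. The median of the contractile genes lies to the right of 0, at 0.81, with members from -0.74 to 2.20. That of the interferon and antigen presentation genes lies to the left, at -0.73, with members from -3.30 to 2.80.

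Interferon response genes fell after d2 in Cl19. Interferons act through a transcription factor complex that binds the interferon-stimulated response element, and their targets include antiviral proteins and the class I antigen presentation pathway. Of 24 such genes, 12 fell and 1 rose (median -0.73). Between 9 and 12 fell as arrays were left out, and 14 fell with d2 replicate 1 kept. None of the 24 passed the test in 3c3 over the same days in either direction, and the clones differed in 10 of them. The member that rose was Mx2 (2.80, adjusted p = 0.013), named here, after its value was seen, because the count was 1, and its call was lost without either d2 array. Probes of such gene families (Oas, Ifit and MHC class I) may also read near-identical copies.

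Rsad2 (viperin), an antiviral enzyme whose probe lies at chr6:44101104-44101163 of rn4, read 6.20 on average at d0, 9.94 and 10.10 at d2, 6.57, 7.23 and 6.37 at d4 and 5.63 on average at d6. It had risen by 3.82 and turned back, and the d4 arrays lay near d0. The fall was -3.30 ± 0.42 (adjusted p = 7.46e-05), 9.82-fold, and a second probe of the gene fell by 1.58. In 3c3 its change was 0.62 (adjusted p of the difference 0.000648). Ifit3 turned back likewise, from 3.56 and 3.71 at d2 to 1.09, 0.88 and 0.51 at d4, where it was not well above background, at least 3.09-fold lower (adjusted p = 3.4e-05). Oas1a, an RNA-sensing 2'-5' oligoadenylate synthetase, had not changed by d2 (6.38 and 6.65 after 6.08 at d0) and then read 3.22, 3.71 and 3.45. Its fall of -3.06 ± 0.42 was 8.32-fold (adjusted p = 0.000126). B2m, the light chain of MHC class I, fell from 12.17 and 12.22 to 11.10, 10.87 and 10.65 (-1.32 ± 0.15, adjusted p = 2.45e-05), and its 4 probes fell by 1.32 to 1.78. The left-out array read 12.64. In 3c3 the change of B2m was -0.10 (adjusted p of the difference 0.00207).

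The promoters of Rsad2, Ifit3 and B2m are printed because each held the element searched, TTTC followed by 2 free bases and TTTC, on either strand (GRCr8, the 250 bases before the RefSeq gene start in the sense of the gene, with the match in capitals). Their positions are chr6:48788121-48788370 on the minus strand for Rsad2, chr1:241527076-241527325 on the plus strand for Ifit3 and chr3:129549080-129549329 on the plus strand for B2m.
Rsad2: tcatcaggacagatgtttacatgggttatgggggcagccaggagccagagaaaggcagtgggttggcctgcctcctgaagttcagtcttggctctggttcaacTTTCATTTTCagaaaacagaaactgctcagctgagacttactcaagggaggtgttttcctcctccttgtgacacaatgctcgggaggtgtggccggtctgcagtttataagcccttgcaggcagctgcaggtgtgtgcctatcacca
Ifit3: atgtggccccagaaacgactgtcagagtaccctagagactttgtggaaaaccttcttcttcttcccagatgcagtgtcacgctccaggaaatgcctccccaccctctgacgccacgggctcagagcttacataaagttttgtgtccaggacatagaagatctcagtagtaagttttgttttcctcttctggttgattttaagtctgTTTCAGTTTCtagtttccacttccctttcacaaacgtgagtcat
B2m: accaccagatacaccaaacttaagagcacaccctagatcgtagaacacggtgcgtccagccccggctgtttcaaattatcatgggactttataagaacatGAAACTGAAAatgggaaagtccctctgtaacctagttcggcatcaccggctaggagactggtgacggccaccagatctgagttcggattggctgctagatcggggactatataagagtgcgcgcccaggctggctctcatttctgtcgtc
The match began 147, 44 and 150 bases before the start in Rsad2, Ifit3 and B2m. In the window of 300 bases, 7 of the 10 promoters found for genes that fell held it, as did 5 of 9 of the other measured genes of the list and 3.77% of all promoters. Among contractile genes, 1 of 13 promoters of genes that rose and 0 of 11 others held a CArG box, the element read by SRF, against 1.64% of all promoters. Only exact matches in the window of 300 bases were searched. Promoters were found for 13 of the 16 contractile genes that rose, and Tagln had none. The study reports CArG boxes in the upstream regions of Sm22α (Tagln) and αSma. Hence the count does not show that contractile genes lack the element.

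In 3c3, 2493 probes (10.1%) changed between d2 and d4. Of the 2915 probes of Cl19, 788 changed in 3c3 in the same direction and 64 in the opposite one. The change itself differed between the clones in 682 of all probes tested (2.76%), 252 higher and 430 lower in Cl19, and in 465 genes. These counts rest on 3c3 replicate 3, whose slide had the fewest probes well above background among the cell arrays at d4 and d6, since 294 probes differed without it. They were 374 without Cl19 d2 replicate 2, 354 without d2 replicate 3 and 429 without d4 replicate 3. Of the continued probes 220 of 1097 differed, of the newly changed 195 of 1572 and of the turned back 52 of 246. These classes were picked by the same Cl19 change that enters the test of the clones. A share above that of all probes thus follows in part from the choice.

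**Figure D4:**
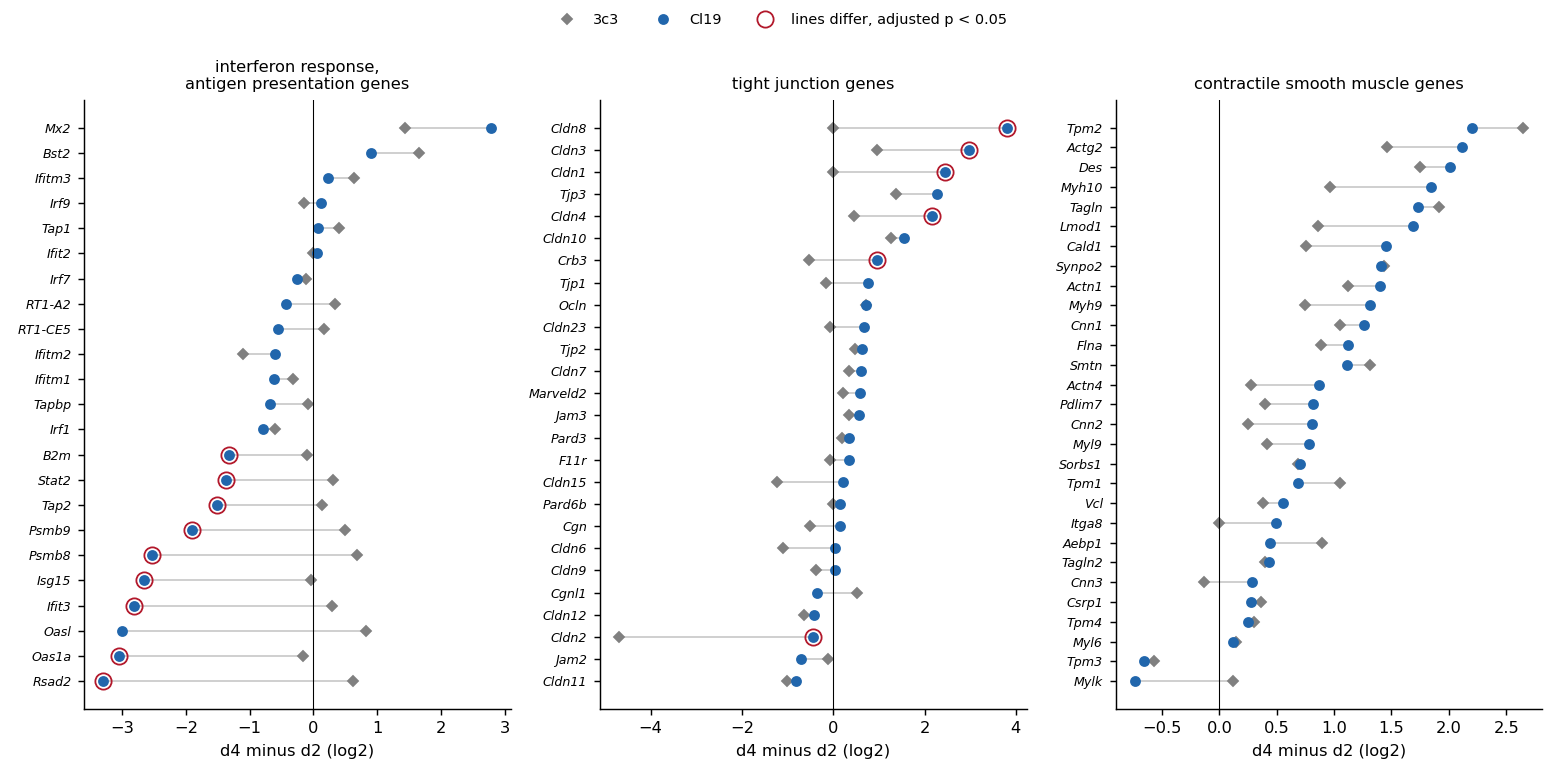
Change from d2 to d4 (horizontal axis, log2) in Cl19 (blue) and 3c3 (grey) for measured genes (rows) of the interferon, tight junction and contractile lists, with a red ring where the clones differed at an adjusted p under 0.05. Rings mark 6 of 26 tight junction genes and none of 29 contractile genes, and in the interferon panel, from which 1 measured gene was left out, they lie on genes that were lower at d4 in Cl19.

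Of 35 DNA replication genes, 6 fell and none rose (median -0.70), and of 34 mitosis genes 2 fell (median -0.62). Of all genes 7.35% fell, a share that the count of mitosis genes did not exceed. The number of replication genes that fell was 0 without d2 replicate 2, 0 without d2 replicate 3, 1 without d4 replicate 3 and 9 without d4 replicate 2, and it was 14 with d2 replicate 1 kept. The number of mitosis genes that fell was 0 without d2 replicate 2, d2 replicate 3 or d4 replicate 3, 1 without d4 replicate 1, 3 without d4 replicate 2 and 8 with d2 replicate 1 kept. Igf1, a growth factor, was newly lower after d2. It read 8.43 on average at d0, 8.83 and 8.47 at d2, and 4.00, 4.97 and 4.20 at d4. The days were far apart, and the fall was -4.26 ± 0.27 (19.2-fold, adjusted p = 4.15e-08), although its 4 probes ranged from -4.26 to -0.13. It fell also in 3c3 (-2.07), by less than in Cl19 (adjusted p of the difference 0.00207). Gadd45b, a stress-induced growth regulator, rose from 10.90 and 10.70 to 12.42, 11.73 and 12.15 (1.30, adjusted p = 0.000344). Of 19 cell cycle inhibitor and D cyclin genes, 3 rose and 2 fell, against 7.28% and 7.35% of all genes. Cdkn2c, which encodes a cyclin-dependent kinase inhibitor, was newly lower, by -2.02 (adjusted p = 0.00235). Ccnd1, a D cyclin gene, fell by -1.86 (adjusted p = 0.00475). The cyclin-dependent kinase inhibitor gene Cdkn2b rose from 10.37 and 9.97 to 11.89, 12.35 and 13.00 (2.24, adjusted p = 0.00423, and 0.0035 to 0.0626 as arrays were left out, highest without d2 replicate 3).

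The largest rise of the step was that of Chia, an acidic chitinase, by 6.54 ± 0.91 (93.1-fold, adjusted p = 0.000148). It read 5.24 and 6.90 at d2, 10.75, 13.96 and 13.12 at d4 and 15.22 on average at d6, and continued a rise begun before d2. Other genes that continued upwards were Bpifa1, a secreted airway protein (6.16 and 6.75, then 10.09, 12.33 and 11.25), Krt79, a keratin (3.03 and 4.02, then 7.40, 6.84 and 8.81), and Prss23, a serine protease (5.88 and 6.11, then 9.62, 10.00 and 10.33). All 3 rose by 3.99 to 4.77 log2. Among newly changed genes Tst, a mitochondrial sulfurtransferase, rose by 4.61 (4.59 and 6.27, then 9.26, 10.33 and 10.54). Its change in 3c3 was -0.27.

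The largest fall was that of Dpysl4, of the dihydropyrimidinase-like family, by -5.01 ± 0.62 (32.2-fold, adjusted p = 5.21e-05). It read 12.61 on average at d0, 9.81 and 10.34 at d2, 6.33, 4.61 and 4.26 at d4 and 2.82 on average at d6, while its change in 3c3 was 0.42. Aqp8, a water channel, was newly lower (12.36 and 12.70, then 9.36, 7.67 and 7.66), with a change of 1.10 in 3c3 (adjusted p of the difference 0.000229). Upk3a, a uroplakin, fell by -4.04 (10.14 and 8.99, then 5.89, 4.72 and 5.98) and by -4.05 in 3c3. Nkx6-2, a homeobox gene, fell by -4.65 in the main fit and by -2.89 with the left-out array, which read 5.49 against 11.27 and 10.31, and its second probe changed by -0.94.

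Genes that turned back upwards were led by Myh14, a non-muscle myosin heavy chain. It read 7.19 on average at d0, 3.31 and 3.96 at d2, and 7.73, 8.79 and 9.88 at d4, a rise of 5.16 ± 0.56 (35.7-fold, adjusted p = 1.46e-05). Aqp3, a glycerol and water channel, followed the same course (5.77, then 2.54 and 3.03, then 5.37, 6.91 and 6.46). Tfap2c, a transcription factor, read 4.86 and 4.73 at d2 and 6.23, 7.80 and 8.02 at d4, yet the left-out array read 9.27 and with it the change was 1.06 and did not pass. Downwards, Ckmt1, a mitochondrial creatine kinase, went from 9.01 at d0 to 12.08 and 11.77 at d2 and back to 9.13, 7.41 and 7.90 at d4 (-3.77, adjusted p = 1.08e-05). Matn1, a cartilage matrix protein, went from 0.44 to 7.93 and 7.34 and then to 4.08, 3.99 and 3.05, but the left-out array, at 1.27, lay below d4, and with it the change was -1.81 and did not pass.

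Marker lists of other cell types were counted in the same fit, in which 7.28% of all genes rose and 7.35% fell. No blood cell marker of 8 passed the test, and Ptprc (CD45) was not well above background on any array of d2 or d4. Of 10 endothelial markers none rose and 3 fell (Esam, Tek and Egfl7), while 1 fell without d2 replicate 2, and 1 fell and 1 rose without d2 replicate 3. Pecam1 had no d4 array well above background. Of 9 trophoblast markers 2 rose (Tfap2c and Gata3) and 2 fell (Gata2 and Plac1), of 7 skeletal muscle markers 1 rose (Acta1) and 2 fell (Myh3 and Myl11), of 7 neural markers 1 rose (Nes) and 1 fell (Syp), and of 4 hepatocyte markers 1 rose (Hpd). These genes were named after their values were seen, because the counts were small, and each of these counts other than that of the skeletal muscle gene that rose changed when at least 1 array was left out. The mean log2 signal over the 10 endothelial markers was 5.07 and 5.20 at d2 and 4.87, 4.36 and 4.61 at d4. Of 23 cardiac and early mesoderm genes 6 rose and 1 fell (3 rose without d2 replicate 2, 2 without d2 replicate 3, 3 without d4 replicate 3 and 4 or more without each other array), and the natriuretic peptide gene Nppa read 8.20 and 7.62 and then 9.54, 10.49 and 10.92 (2.40, adjusted p = 0.0049, lost without d2 replicate 3). Of 20 cilium genes 3 rose, among them the regulator Rfx3 (4.31 and 4.41, then 5.72, 5.20 and 5.53) and Foxj1, which read 9.24 and 10.99 and then 11.42, 13.18 and 12.86 (adjusted p = 0.0294, and 0.012 to 0.368 as arrays were left out). The part of these cell types in the results above was not tested.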

How the data were processed

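Cy3-labelled RNA of each sample was hybridised to 1 Agilent rat array, and the deposited scanner files (Agilent Feature Extraction 10.1.1.1, per the file headers) hold, as the intensity used here, the processed signal made by the authors' facility after background subtraction. The deposited table of log2 values was the authors' own and served as an alternative, and no columns of comparisons were used. Here log2 processed signals were quantile normalised over 26 arrays, with features of a probe averaged, as in the study's methods. Features flagged as outliers by the scanner software were left out before averaging, a step that the study's methods do not describe. Probes well above background on every array used of at least 1 group were tested (24673 of 41012), in 1 fit of 9 groups on 25 arrays with limma 3.58.1 (R 4.3.3), at a Benjamini-Hochberg adjusted p under 0.05 over all of them. Lists used 1 probe per gene, the one with the highest mean level. Symbols came from RefSeq by accession, gene number or name (23739 probes had one), and probe positions from the array design (rn4).

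Named genes were first the 10 largest rises and falls and the 4 largest of each class and direction, with fixed conditions on background, overlap and slides. In these the lack of overlap was thus a condition of the choice. Without those conditions, up to 4 per list (or all where few passed) were taken by size among those past the threshold. The regulators of the study were named whatever their change. The members and lists were chosen with earlier results of these data known. Self-tests on simulated data recovered 74% of probes changed by 2 log2 and 32% of those changed by 1 in this comparison. The simulated noise was independent between arrays, unlike that of real arrays on a shared slide, so these shares may not hold for the data. Arrays give no counts, so their number, here 2 against 3, limits the precision. Same-numbered arrays shared a slide, and their deviations correlated above 0.1 in 14 of 15 pairs of Cl19 arrays. Alternatives covered scaling, background, filters, the slide as a block, other fits and each array left out. Some genes are not reported here, though they stay in the counts of their lists.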

Additional observations from a re-analysis of the deposited data

Results flagged for a closer look

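The change from d2 to d4 differed between Cl19 and 3c3 in 682 probes by limma, tested as an interaction. When 3c3 replicate 3 was left out of the fit, 294 probes differed, 267 of them among the 682. For the genes named, the difference of the changes is Cl19 minus 3c3, in log2. It was 4.17 in Myh14, 3.43 in Tfap2c, 2.50 in Prss23, 2.44 in Rbp4, 2.18 in Cdh3 and 2.03 in Cldn3. On the other side, Dpysl4 had -5.43, Aqp8 -5.39, Cited4 -4.94, Rsad2 -3.92 and Cd52 -3.53. The probes of Myh3, an embryonic myosin heavy chain, had -3.60 and -3.59. Rtp4 had -3.30, Ribc2 -3.03, Oas1a -2.90, Ckmt1 -2.76 and Cdkn2c -2.52. Igf1 had -2.19, Ccnd1 -2.13, Smad6 -1.65, Gata6 -1.41 and B2m -1.22.

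In other probes at least 1 array at d2 or d4 in the clones was not well above background, so that the fitted difference has no exact size and no order was read from it. No array of at least 1 day of a clone was well above background in Lum (4.65), Aqp3 (4.27), Cldn8 (3.81), Cldn1 (2.44), Pdgfb (2.40), Wnt10b (2.08), Matn1 (-3.73), Ifit3 (-3.10) and Tek (-1.84). Only some arrays of a day were in Bpifa1 (5.65), Tst (4.89), Rab25 (3.79), Wnt5b (3.40), Nkx6-2 (-3.35) and Foxc1 (-2.44). In Matn1, Nkx6-2 and Tfap2c the left-out d2 array of Cl19 lay far from the others of that group.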

How the results depend on the processing

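With 2 d2 arrays the counts depend on each of them, and probes near background give bounds. The main count was 2915 changed probes (1457 higher), with 1572 newly changed, 1097 continued, 246 turned back and 682 that differed between the clones. With d2 replicate 1 kept, 5015 changed and 3120 were newly changed, and 2757 of the 2915 remained. The replicate block (slide) gave 4395 changed, 1766 continued, 424 turned back and 1141 that differed. The slide as a random block gave 4779, 2377, 1915 and 487 for all, newly changed, continued and turned back probes, and 1346 that differed. Leaving out 1 array gave 1037 to 3797 changed, 597 to 2220 newly changed, 346 to 1163 continued, 94 to 414 turned back and 354 to 885 that differed, and leaving out 3c3 replicate 3 gave 294 that differed. Newly changed probes fell to 978 when Cl19 arrays were normalised alone and to 1044 when they were fitted alone. Unshared d2 arrays gave 585 and 711 newly changed, 396 and 458 continued, and 56 and 74 turned back. A Student's t-test gave 4357 probes at the unadjusted threshold (1996 continued and 554 turned back) and 0 after Benjamini-Hochberg adjustment in every class. There limma gave 6297 at an unadjusted p under 0.05. The study names the t-test for its comparisons in general. Its array probes were selected otherwise, by the area between each time profile and the d0 level, and that method was not run here. The authors' log2 table, whose median change was -0.11 against -0.06, gave 3260 (1312 higher). Scaling by the 75th percentile, normexp, filters and floors kept each count within 1.5 times. Of 129 named probes called, 68 kept the call with every single array left out and 61 lost it without at least 1 d2 array. With the block 8 of these calls were lost, with d2 replicate 1 kept 4 were, with normexp 14 were and with the floor 5 were. The call of Cldn1 was lost with both normexp and the floor. No called named probe reversed under the alternatives run. Leaving out all Cl19 arrays of replicate 1, chosen after seeing the data, gave 2291. The causes were not tested.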
